A study of Mus musculus with 12 samples.

Results

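The genes described here are 48 genes of the cell cycle and of DNA replication, named by symbol in a list that covers origin licensing, the replication fork, nucleotide synthesis, cyclins, transcription factors of the cycle and the machinery of mitosis. All 48 were found among the 12809 genes of the deposited table, so no listed member was lost. Their RNA was measured by RNA-seq in sorted CD4 and CD8 lymph node (LN) T cells, in 12 libraries that form 4 groups of 3 replicates. Levels are CPM (counts per 1e+06 reads) scaled between libraries by TMM, a factor that corrects for differences in RNA composition.

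B6 CD4 and B6 CD8 T cells came from female C57BL/6 mice aged 10 weeks. FlipFlop CD4 and FlipFlop CD8 T cells came from female FlipFlop mice aged 14 weeks by the labels, an age above the general range in the study's methods. In these mice both Cd8a loci were altered to encode CD4 (Cd8-CD4 alleles, from 4in8 mice) and both Cd4 loci to encode CD8αβ.1 (Cd4-CD8 alleles, from 8in4 mice). The Cd8-CD4 allele was made in 129 embryonic stem cells and carries genes of the 129 strain, so strain, age and 129 genes cannot be told apart. As the study names the fates, B6 CD4 and FlipFlop CD8 T cells are of the helper lineage, and B6 CD8 and FlipFlop CD4 T cells are of the cytotoxic lineage. Nothing in the labels says that replicates are separate animals, so p-values measure only the spread between these samples.

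Most T cells in a resting LN are quiescent, and a small share divides, among them activated, memory and regulatory T cells. Before S phase the MCM helicase is loaded on DNA with CDC6 and CDT1, then fired with CDC45 and GINS at the fork, where PCNA holds the polymerases. Later in the cycle cyclins A and B drive CDK1, and aurora and polo kinases, kinesins, condensin and kinetochore proteins condense, align and separate the chromosomes. MCM proteins and PCNA are known to stay abundant outside S phase, whereas transcripts of mitotic genes are known to accumulate mainly in cells that are in G2 and M phase. The members were therefore divided into 20 genes of G1 and S phase (G1/S) and 28 genes of G2 and M phase (G2/M).

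The libraries held 2.66e+07 to 3.31e+07 reads on listed genes, for which 3 reads equal 0.0857 to 0.120 CPM. All 48 members passed the filter of at least 1 CPM in at least 3 libraries, along with 11595 genes in all, and 42 reached 1 CPM in all 12 libraries. The others were Mcm10, Ccne2, Cenpe, Cenpf, Bub1 and Kif15, which fell under it in some libraries. The T cell label held, since all 12 T cell identity genes, such as Cd3e, were tested and their summed level was 6264 to 9253 CPM. The defining markers Rag1 and Rag2 of thymocytes were not among the listed genes.

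FlipFlop CD8 T cells held the highest mean level of 42 of the 48 members, and the difference was largest among the G2/M genes. The median level of the 28 G2/M members was 11.6, 14.8 and 9.70 CPM in the 3 FlipFlop CD8 libraries, 4.47, 5.46 and 4.87 CPM in those of B6 CD4, 3.99, 3.39 and 3.18 CPM in those of FlipFlop CD4 and 2.92, 3.12 and 3.50 CPM in those of B6 CD8. Every FlipFlop CD8 library lay above the other 9 libraries in this median. Taken gene by gene, all 3 FlipFlop CD8 libraries exceeded all 9 others for 32 of 48 members, of which 24 were G2/M and 8 were G1/S, against 10.1% of all genes tested. B6 CD8 T cells had the lowest mean level of 28 members. The shares of all genes with their highest or lowest mean in these groups are not given here. Because these are bulk samples, fewer dividing cells and less RNA per cell cannot be told apart.

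**Figure D1:**
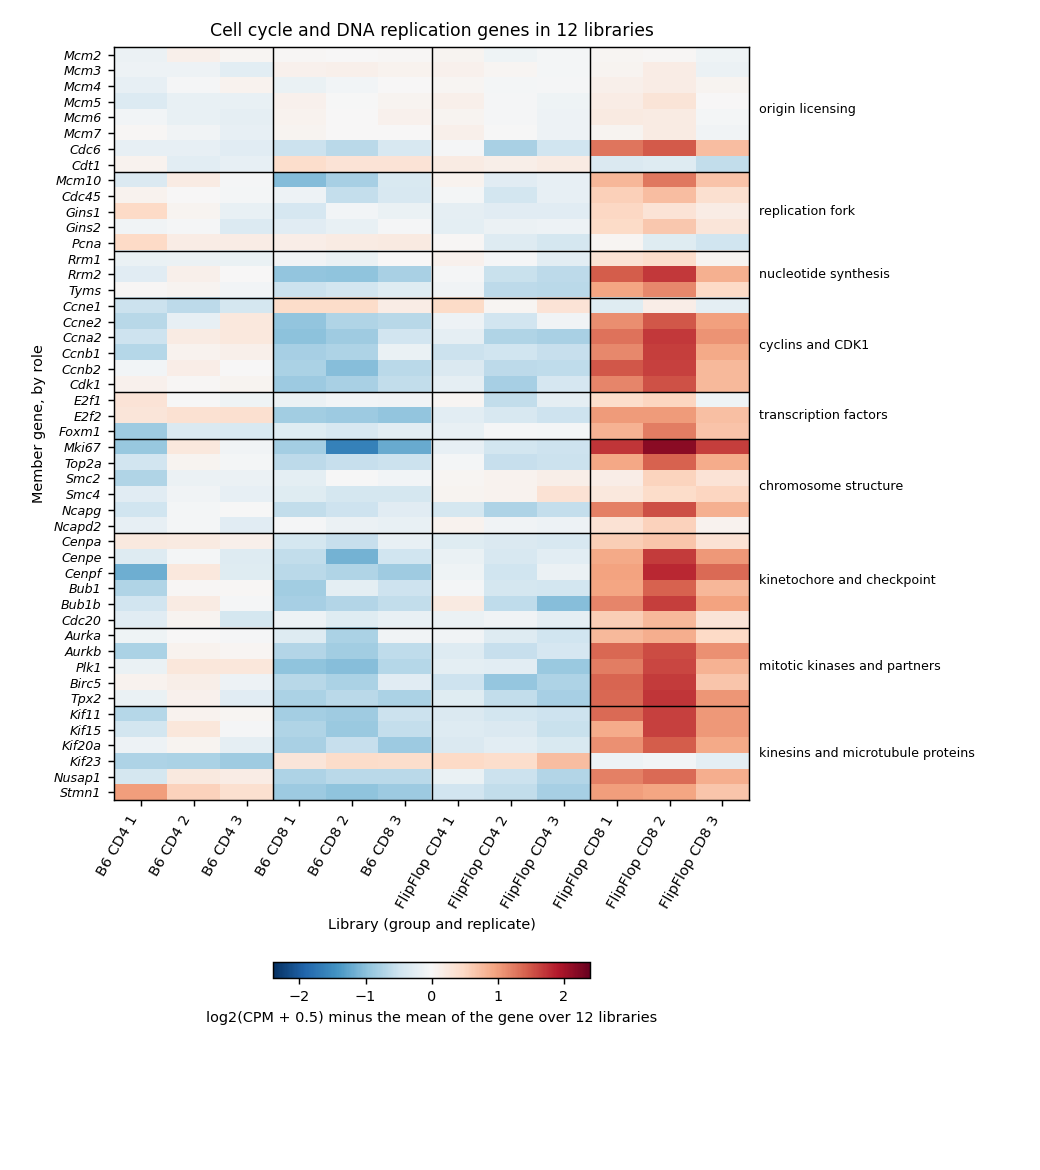
Level of each of the 48 members (rows, by role) in the 12 libraries (columns), as log2(CPM + 0.5) minus the mean of the gene over all libraries, with red above and blue below that mean. The 3 FlipFlop CD8 columns are red for most genes from Rrm2 to Nusap1, Kif23 and Ccne1 run opposite to their neighbours, and Mcm2 to Mcm7 are nearly white.

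The 7 comparisons address how these genes follow lineage, surface coreceptor and strain, and they share the same 12 libraries, so their values are not independent of each other. A gene was called when limma gave a Benjamini-Hochberg adjusted p under 0.05 over all genes tested, and differences are on the log2(CPM + 0.5) scale, which understates those of low genes. Between normal T cells (B6 CD4 minus B6 CD8), 14 members were higher and 5 lower, against 14.6% and 10.8% of all genes. The median difference of the members was 0.36, against -0.0038 over all genes. Leaving out B6 CD8 replicate 2 reduced the 19 calls to 12. The count of higher members fell to 8 without B6 CD4 replicate 2 and to 9 without B6 CD4 replicate 3 or B6 CD8 replicate 2, and was 20 without B6 CD4 replicate 1. That of lower members was 3 without any 1 of the B6 CD8 replicates. Without the TMM factor 17 members were higher and 3 lower. Of the 19 calls, 8 were lost when single libraries were left out, namely those of Mcm3, Mcm5, Mcm10, Ccna2, Mki67, Tpx2, Kif15 and Nusap1. The other 11 held in all alternative fits at this threshold in which the gene was tested.

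Between the FlipFlop groups (FlipFlop CD4 minus FlipFlop CD8), 2 members were higher and 35 lower, against 15.3% and 16.0% of all genes. The median of the members was -1.31, and that of all genes was 0.04. All 14 members called higher in CD4 than in CD8 T cells of B6 mice were among the 35 called lower in FlipFlop mice. A further 2 members were called the other way in both strains, and 0 were called in the same direction in both strains. The lineage effect, the mean of both helper groups minus the mean of both cytotoxic groups, is a multiple of the interaction of strain and coreceptor. It tests whether the CD4 minus CD8 difference is unequal in the strains, not whether its sign turns. By this test 34 members were higher in the helper lineage and 3 lower, against 19.9% and 19.4% of all genes, with a median of 0.86 against -0.03. Of the 34, the CD4 minus CD8 difference was positive in B6 and negative in FlipFlop mice for 32, and negative in both for Foxm1 and Cdc20. None of the 37 lineage calls was lost in the alternative fits at this threshold, whereas leaving out single libraries ended 3 of the 37 calls between the FlipFlop groups (Gins1, Rrm1 and Ncapd2).

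**Figure D2:**
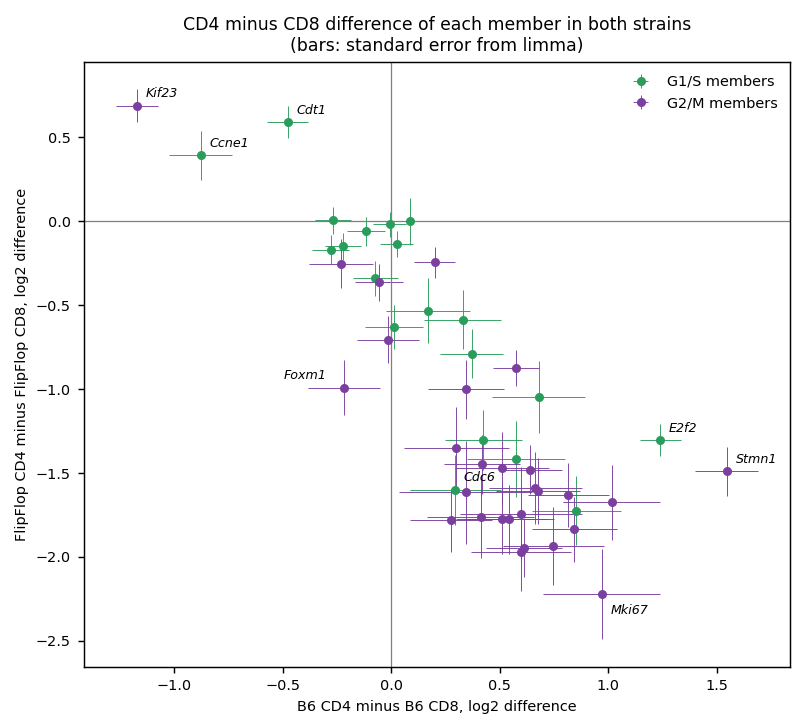
CD4 minus CD8 log2 difference of each member in B6 T cells (horizontal axis) and in FlipFlop T cells (vertical axis), with the standard error from limma as bars and G1/S and G2/M members in different colours. The 2 axes share no library, and most G2/M members lie between 0 and 1 on the B6 axis and between -1 and -2 on the FlipFlop axis, whereas Stmn1 and E2f2 moved by like amounts on both and Kif23 lies in the opposite corner.

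The groups of one lineage were then compared directly. Within the helper lineage (FlipFlop CD8 minus B6 CD4) 38 members were higher and 2 lower, against 13.2% and 14.4% of all genes, and the median difference was 0.91 against -0.01. The 2 lower members were Pcna and Cdt1. Leaving out single libraries ended both calls and those of Mcm6, Cdc45, Rrm1 and Cenpa, 6 of the 40. Within the cytotoxic lineage (FlipFlop CD4 minus B6 CD8) 2 members were higher and 0 lower, against 4.17% and 3.75% of all genes, and at an unadjusted p under 0.05 limma gave 7 higher and 1 lower, against 12.4% and 10.5% of all genes. Those 2 were E2f2 and Smc4, and with a replicate block across all groups 3 members were higher and 1 lower. For the strain effect (FlipFlop minus B6 over both coreceptors) 35 members were higher and 2 lower, against 15.8% and 15.4% of all genes. The strain calls of Cdc45, Gins2, Rrm1, Tyms, Aurka and Birc5 were lost when single libraries were left out. That of Cdt1, a lower member, was lost without the TMM factor (adjusted p = 0.11 by limma).

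The coreceptor effect (CD4 minus CD8 over both strains) gave 10 members lower and 0 higher, against 3.78% and 1.71% of all genes, and at an unadjusted p under 0.05 limma gave 34 lower and 0 higher, against 9.86% and 8.71% of all genes. This effect is a mean over strains. The difference of the 10 was negative for all of them in FlipFlop mice but positive in B6 mice for all except Foxm1. Tpx2 and Kif20a were called higher in B6 CD4 than in B6 CD8. The 10 were Cdc6, Ccnb1, Foxm1, Top2a, Ncapg, Aurkb, Birc5, Tpx2, Kif11 and Kif20a. This count depended on single libraries, since it was 3 without B6 CD8 replicate 1, 5 without B6 CD8 replicate 2, 3 without B6 CD8 replicate 3, 3 without FlipFlop CD4 replicate 2, 4 without FlipFlop CD4 replicate 3, 4 without FlipFlop CD8 replicate 1, 3 without FlipFlop CD8 replicate 2 and 18 without FlipFlop CD8 replicate 3. It was 20 with a replicate block within each strain and 20 without the TMM factor.

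The phase groups differed in how many members were called. Of the 28 G2/M members, 11 were higher and 1 lower in B6 CD4 than in B6 CD8 T cells, 25 were lower and 1 higher in FlipFlop CD4 than in FlipFlop CD8, and 27 were higher in FlipFlop CD8 than in B6 CD4. The shares of all genes in these directions were 14.6% and 10.8%, 16.0% and 15.3%, and 13.2%. Of the 20 G1/S members, 3 were higher and 4 lower in the first of these comparisons, 10 lower and 1 higher in the second, and 11 higher and 2 lower in the third. The 3 higher G1/S members of the first comparison were a share near that of all genes. The median log2 difference of FlipFlop CD8 from B6 CD4 was 1.26 over the G2/M members and 0.40 over the G1/S members. No test of this difference between the phase groups was made.

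Because a larger share of G2/M than of G1/S members was called, the promoters of members from both are shown, from RefSeq on GRCm38.p6. Of the 48 members, 37 had an entry, 16 of G1/S and 21 of G2/M. Each window of 300 bases, from 250 before to 50 after the transcription start, was searched on both strands for the letters of 3 motifs. They were the cell cycle homology region (CHR, TTTGAA or TTCGAA) and the CCAAT box (CCAAT), both known from promoters of G2/M genes, and the E2F site (TTTCGCGC, TTTGGCGC or TTTCCCGC), known from promoters of G1/S genes. None of these motifs lies within another, but E2F matches can overlap each other. CHR letters were in the windows of 17 of the 21 G2/M members (81.0%) and of 4 of the 16 G1/S members (25%), against 21.7% of all 27025 genes with a window. E2F letters were found for 7 G1/S members (43.8%) and 4 G2/M members (19.1%), against 2.12% of all genes.

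CCAAT letters, which are common, were found for 18 G2/M members (85.7%) and 11 G1/S members (68.8%), against 41.1% of all genes. CHR and CCAAT letters occurred in the same window for 16 of the 21 G2/M members (76.2%), against 8.61% of all genes. The G2/M members with no CHR letters in the window were Nusap1, Cenpe, Birc5 and Ccnb1. A match is a description of the letters and not of a bound factor.

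**Figure D3:**
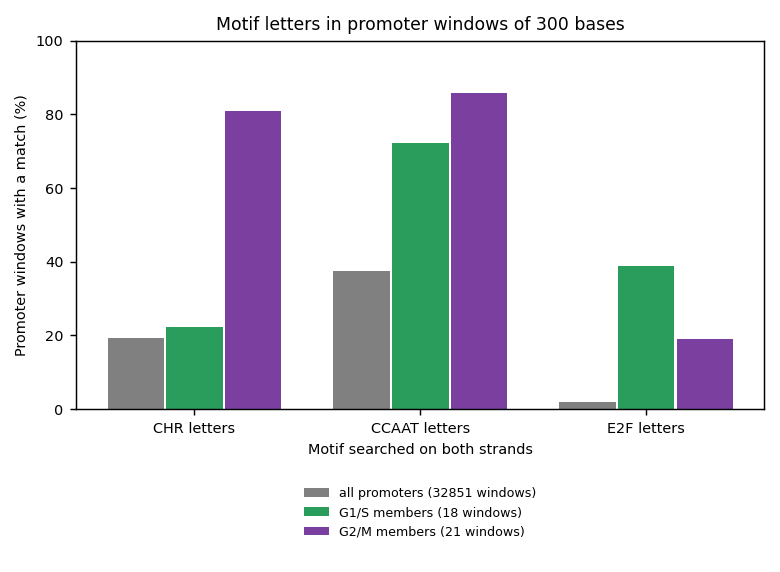
Percent of promoter windows of 300 bases (vertical axis) that hold the letters of each motif on either strand, for 32851 windows of all genes, 18 windows of G1/S members and 21 windows of G2/M members. CHR letters are in 81.0% of G2/M windows and 22.2% of G1/S windows, and E2F letters are in 38.9% of G1/S windows and 19.1% of G2/M windows.

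The 150 bases before the start of 4 G2/M members that rose in FlipFlop CD8 over B6 CD4 T cells are given 5′ to 3′ with matches in capitals. They are examples that hold CHR matches in these bases, whereas Cenpf, Bub1, Plk1 and Ccnb2 of G2/M hold CHR letters only outside them. Mcm2 of G1/S also holds a CHR match within its 150 bases. Cdk1 (chr10:69352913-69353062, minus strand) holds an E2F match followed by alternating CCAAT and CHR matches, Top2a (chr11:99024190-99024339, minus strand) holds the largest number of matches of the 4, Mki67 (chr7:135716380-135716529, minus strand) holds a pair of CHR matches close to each other and Cdc20 (chr4:118437344-118437493, minus strand) holds a CHR match between CCAAT matches.
Cdk1: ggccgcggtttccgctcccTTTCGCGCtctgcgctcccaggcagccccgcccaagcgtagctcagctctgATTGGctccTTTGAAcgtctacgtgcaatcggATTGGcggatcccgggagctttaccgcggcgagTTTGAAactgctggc
Top2a: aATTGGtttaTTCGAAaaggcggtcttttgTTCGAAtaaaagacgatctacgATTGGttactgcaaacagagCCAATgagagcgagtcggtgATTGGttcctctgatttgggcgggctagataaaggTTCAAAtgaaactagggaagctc
Mki67: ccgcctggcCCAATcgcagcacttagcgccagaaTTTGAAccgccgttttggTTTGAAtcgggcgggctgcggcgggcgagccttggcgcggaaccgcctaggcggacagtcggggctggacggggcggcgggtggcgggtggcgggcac
Cdc20: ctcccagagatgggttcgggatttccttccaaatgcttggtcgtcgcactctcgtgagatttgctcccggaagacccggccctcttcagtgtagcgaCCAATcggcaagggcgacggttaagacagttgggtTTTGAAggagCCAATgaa

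For comparison, the same stretch is shown of 2 licensing genes and of Kif23 (chr9:61946800-61946949, minus strand). Mcm6 (chr1:128359706-128359855, minus strand) has E2F and CCAAT matches, and Mcm3 (chr1:20820313-20820462, minus strand) has CCAAT matches only in these bases. Kif23 was the only G2/M member with a negative lineage effect, although it too rose in FlipFlop CD8 over B6 CD4. The window of Kif23 also holds CHR letters, but outside the bases printed, so it is not set apart by these letters.
Mcm6: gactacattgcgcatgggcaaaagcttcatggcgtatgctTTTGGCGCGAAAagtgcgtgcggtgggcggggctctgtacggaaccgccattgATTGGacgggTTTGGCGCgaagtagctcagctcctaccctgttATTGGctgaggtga
Mcm3: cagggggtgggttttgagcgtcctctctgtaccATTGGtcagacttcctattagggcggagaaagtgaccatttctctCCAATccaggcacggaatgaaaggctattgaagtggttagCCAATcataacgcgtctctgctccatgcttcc
Kif23: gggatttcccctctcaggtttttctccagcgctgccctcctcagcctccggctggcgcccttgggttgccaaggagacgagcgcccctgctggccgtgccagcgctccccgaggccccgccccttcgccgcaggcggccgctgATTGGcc

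Members with CHR letters in the window had a median difference between FlipFlop CD8 and B6 CD4 of 1.09 on the log2 scale (21 members), and those without had 0.64 (16 members). The ranges overlapped, from -0.02 to 2.09 and from -0.51 to 1.43. Within each phase the medians lay close together. They were 1.22 for the 17 G2/M members with the letters and 1.31 for the 4 without, and 0.35 for the 4 G1/S members with the letters and 0.40 for the 12 without.

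Origin licensing genes had the median lineage effect nearest to 0 of the 9 role groups, at -0.03 on the log2 scale. Mcm4, a subunit of the replicative helicase and the licensing member with the highest level per length (31.5 CPM per kb of exon), was at 98.7, 111 and 119.8 CPM in the B6 CD4 libraries, 101, 108 and 114 CPM in those of B6 CD8, 116, 109 and 111 CPM in those of FlipFlop CD4 and 123, 128 and 118 CPM in those of FlipFlop CD8. The FlipFlop CD8 libraries overlapped those of B6 CD4 for Mcm4 and lay above those of FlipFlop CD4 and B6 CD8. Its lineage effect on the log2 scale was 0.08 ± 0.05 (SE; adjusted p = 0.27 by limma). The other helicase subunits Mcm2, Mcm3, Mcm5, Mcm6 and Mcm7 had lineage effects between -0.14 and 0.01, and none was called. Mcm3 and Mcm5 were lower in B6 CD4 than in B6 CD8 T cells, by log2 differences of -0.27 and -0.28 (adjusted p = 0.031 by limma for both). These calls were lost without the TMM factor, without any 1 of the B6 CD8 replicates and without B6 CD4 replicate 3 (Mcm3) or 1 (Mcm5). Mcm5 and Mcm6 were higher in FlipFlop CD8 than in B6 CD4, by 0.39 and 0.28. The call of Mcm6 was lost when only those 2 groups were fitted and without B6 CD4 replicate 2 or 3 or FlipFlop CD8 replicate 1 or 2.

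The helicase loaders CDC6 and CDT1 moved in opposite directions. Cdc6 was low, at a mean of 6.93 ± 1.85 CPM (SD, n = 3) in FlipFlop CD8 against 2.28 ± 0.0877 CPM for B6 CD4, and its log2 difference between them was 1.39 ± 0.21 (adjusted p = 0.00078 by limma). Cdt1 was at 48.3, 38.3 and 39.8 CPM in the B6 CD4 libraries, 61.2, 57.4 and 57.2 CPM in those of B6 CD8, 52.1, 50.3 and 52 CPM in those of FlipFlop CD4 and 35.6, 36.6 and 30.2 CPM in those of FlipFlop CD8. All cytotoxic libraries lay above all helper libraries for Cdt1, and its lineage effect was -0.53 ± 0.07 (adjusted p = 4e-05 by limma). Cdt1 was also called lower in FlipFlop CD8 than in B6 CD4, at -0.30 on the log2 scale (adjusted p = 0.037 by limma). That call was lost without the TMM factor (adjusted p = 0.24), with only those groups fitted (0.12). It was also lost without B6 CD4 replicate 1, B6 CD8 replicate 2 or 3, or FlipFlop CD8 replicate 2 or 3 (adjusted p up to 0.15).

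At the fork, Pcna, the sliding clamp of the DNA polymerases, had the highest level per length of all 48 members (67.7 CPM per kb). It was at 222, 180.3 and 180.0 CPM in the B6 CD4 libraries, 179, 182 and 185 CPM in those of B6 CD8, 163, 128 and 119 CPM in those of FlipFlop CD4 and 166, 131 and 115 CPM in those of FlipFlop CD8. Pcna had a lineage effect of 0.04 ± 0.10, which was not called, but was lower in FlipFlop than in B6 T cells, with a strain effect of -0.47 ± 0.10 on the log2 scale (adjusted p = 0.0056 by limma). The replisome genes Mcm10 and Cdc45, and Gins1 and Gins2 of the GINS complex, were higher in the helper lineage, by log2 effects from 0.32 for Gins2 to 0.86 for Mcm10. Of these 4, only Mcm10 was called between B6 CD4 and B6 CD8, at 0.68 ± 0.21 (adjusted p = 0.035 by limma). That call was lost with only those groups fitted and without B6 CD4 replicate 2 or 3 or B6 CD8 replicate 1 or 2.

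The 3 genes of nucleotide synthesis were higher in FlipFlop CD8 than in B6 CD4 and in FlipFlop CD4. Rrm2, the subunit of ribonucleotide reductase that is made for S phase, was at 11.1, 14.9 and 13.8 CPM in the B6 CD4 libraries, 6.82, 6.72 and 7.72 CPM in those of B6 CD8, 13.3, 9.24 and 8.66 CPM in those of FlipFlop CD4 and 37.9, 44.9 and 25.1 CPM in those of FlipFlop CD8. Every FlipFlop CD8 library exceeded the rest for Rrm2, and the group mean was 5.07 times that of B6 CD8 and 2.71 times that of B6 CD4. The lineage effect of Rrm2 was 1.29 ± 0.14 (adjusted p = 1.5e-05 by limma), that of Tyms, thymidylate synthase, was 0.86 ± 0.13, and that of Rrm1, the large reductase subunit, was 0.13 ± 0.07 and not called. The call of Rrm1 between the FlipFlop groups was lost when only those groups were fitted and without FlipFlop CD4 replicate 2 or 3 or FlipFlop CD8 replicate 1 or 2.

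Among cyclins, the E cyclins, which act with CDK2 at the entry to S phase, separated. Ccne1 was at 4.81, 4.42 and 5.21 CPM in the B6 CD4 libraries, 9.85, 9.84 and 8.15 CPM in those of B6 CD8, 9.95, 7.36 and 9.07 CPM in those of FlipFlop CD4 and 5.75, 8.04 and 6 CPM in those of FlipFlop CD8. The B6 CD4 libraries were the lowest for Ccne1, with a log2 difference between B6 CD4 and B6 CD8 of -0.88 ± 0.15 (adjusted p = 0.00065 by limma). Ccne2 was at 0.564, 0.968 and 1.5 CPM in the B6 CD4 libraries, 0.374, 0.52 and 0.563 CPM in those of B6 CD8, 1.05, 0.725 and 1.08 CPM in those of FlipFlop CD4 and 3.15, 4.2 and 2.83 CPM in those of FlipFlop CD8. Ccne2 was under 1 CPM in 6 libraries of the other groups, and all 3 FlipFlop CD8 libraries lay above the other 9. Its lineage effect was 0.995 ± 0.16, whereas that of Ccne1 was -0.64 ± 0.10.

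The mitotic cyclins and their kinase rose together in FlipFlop CD8 T cells. Ccnb2, a B cyclin and the member of this group with the highest level per length (4.41 CPM per kb), was at 5.26, 6.17 and 5.51 CPM in the B6 CD4 libraries, 3.03, 2.44 and 3.35 CPM in those of B6 CD8, 4.2, 3.37 and 3.42 CPM in those of FlipFlop CD4 and 16.4, 18.2 and 9.8 CPM in those of FlipFlop CD8. Its FlipFlop CD8 mean was 4.03 times that of FlipFlop CD4. Ccnb1, the other B cyclin, was at 2.67, 4.89 and 4.98 CPM in the B6 CD4 libraries, 2.4, 2.52 and 4.04 CPM in those of B6 CD8, 3.06, 3.12 and 2.94 CPM in those of FlipFlop CD4 and 10.8, 15.5 and 8.99 CPM in those of FlipFlop CD8. Neither Ccnb1 nor Ccnb2 overlapped between FlipFlop CD8 and the other groups. Between B6 CD4 and B6 CD8, Ccnb2 and Cdk1, the kinase of mitosis, were called at log2 differences of 0.84 and 0.82, as was Ccna2, cyclin A2, at 0.75, but Ccnb1 was not (0.41 ± 0.25, adjusted p = 0.26 by limma). The call of Ccna2 (adjusted p = 0.033 by limma) was lost in the same fits as that of Mcm10.

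**Figure D4:**
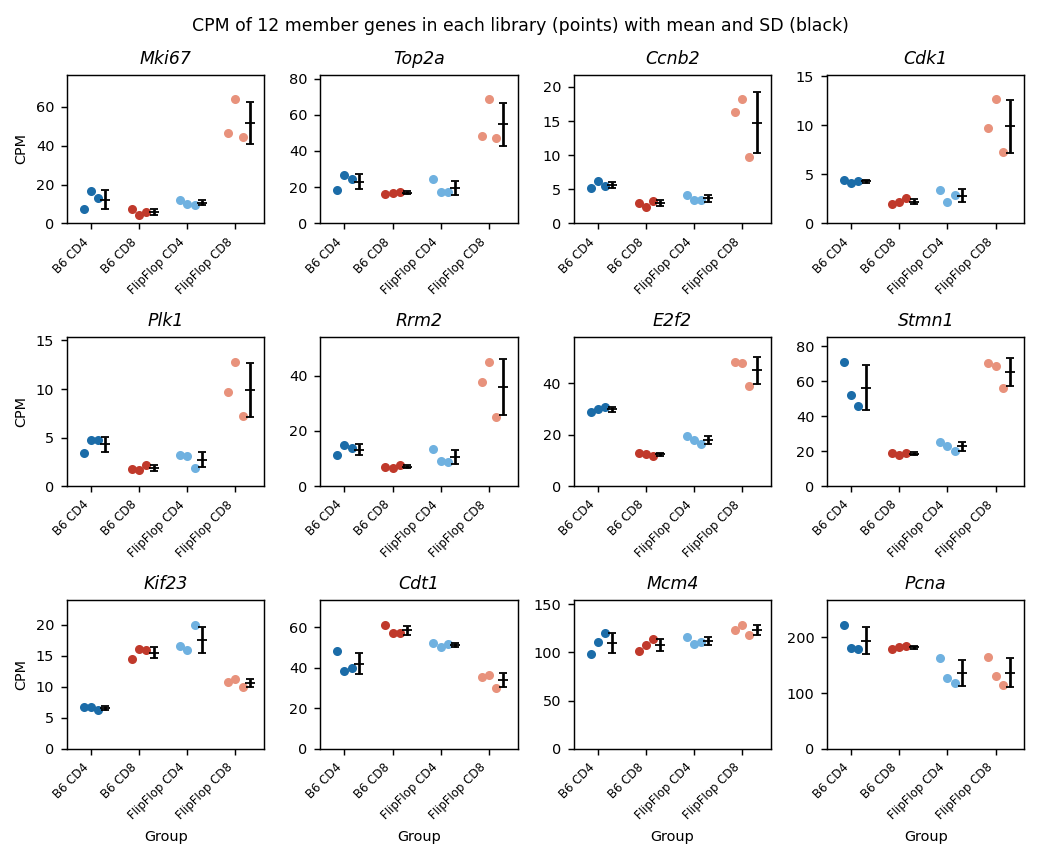
CPM of 12 members in each library (points, 3 per group) with the group mean and SD in black, each panel with its own axis from 0. In the panels of Mki67, Top2a, Ccnb2, Cdk1, Plk1 and Rrm2 all 3 FlipFlop CD8 points lie above the rest, Kif23 and Cdt1 are highest in the B6 CD8 and FlipFlop CD4 groups, and for Mcm4 FlipFlop CD8 overlaps B6 CD4.

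Of the transcription factors, E2f2 followed lineage in both strains. E2f2 was at 28.9, 30.2 and 30.7 CPM in the B6 CD4 libraries, 12.9, 12.5 and 11.8 CPM in those of B6 CD8, 19.4, 17.9 and 16.4 CPM in those of FlipFlop CD4 and 48.3, 48 and 38.9 CPM in those of FlipFlop CD8. The 4 groups did not overlap, in the order FlipFlop CD8, B6 CD4, FlipFlop CD4 and B6 CD8. The CD4 minus CD8 log2 difference of E2f2 was 1.24 ± 0.09 for B6 and -1.31 ± 0.09 for FlipFlop mice (adjusted p = 1.1e-06 and 5.2e-07 by limma), and FlipFlop CD4 exceeded B6 CD8 by 0.51 ± 0.09. E2f1, another activator of G1/S genes, was not called in any of the 7 comparisons. Foxm1, which drives G2/M genes, had no call between B6 CD4 and B6 CD8 (-0.22 ± 0.16) and was higher in FlipFlop CD8 than in B6 CD4 by 1.44 ± 0.16 (adjusted p = 0.00012 by limma).

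Mki67, which encodes the Ki-67 protein that coats mitotic chromosomes and is the usual marker of dividing cells, showed the largest lineage, strain and helper-group differences of all members. It lies on chromosome 7, 135689784 to 135716361 (GRCm38) and was at 7.18, 16.5 and 13.1 CPM in the B6 CD4 libraries, 7.64, 4.16 and 5.73 CPM in those of B6 CD8, 12, 10.1 and 9.67 CPM in those of FlipFlop CD4 and 46.5, 63.9 and 44.6 CPM in those of FlipFlop CD8. The FlipFlop CD8 mean was 4.21 times that of B6 CD4 and 8.84 times that of B6 CD8. The log2 difference of FlipFlop CD8 from B6 CD4 was 2.09 ± 0.27 (adjusted p = 0.00029 by limma), and that between B6 CD4 and B6 CD8 was 0.97 ± 0.27 (adjusted p = 0.019), where B6 CD4 replicate 1 overlapped the B6 CD8 libraries. The last call was lost with only those groups fitted and without B6 CD4 replicate 2 or 3 or B6 CD8 replicate 2.

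Among the other chromosome genes, Smc4, a condensin subunit that compacts chromosomes, differed more by strain than by lineage. It was at 226, 255 and 238 CPM in the B6 CD4 libraries, 222, 202 and 202 CPM in those of B6 CD8, 285, 288 and 345 CPM in those of FlipFlop CD4 and 325, 370.2 and 391 CPM in those of FlipFlop CD8. Smc4 had the highest level per length of the G2/M members (53.6 CPM per kb), and both FlipFlop groups lay above both B6 groups, with a strain effect of 0.57 ± 0.07 on the log2 scale (adjusted p = 0.00012 by limma) and a lineage effect of 0.22 ± 0.07 (adjusted p = 0.018). Ncapg, another condensin subunit, was at 2.37, 3.39 and 3.49 CPM in the B6 CD4 libraries, 2.17, 2.32 and 2.82 CPM in those of B6 CD8, 2.5, 1.88 and 2.19 CPM in those of FlipFlop CD4 and 8.81, 11.2 and 6.69 CPM in those of FlipFlop CD8. It rose in FlipFlop CD8 T cells but differed by only 0.28 ± 0.19 between B6 CD4 and B6 CD8 (adjusted p = 0.33 by limma). Smc2 and Ncapd2 were higher in FlipFlop CD8 than in B6 CD4 by 0.68 and 0.50, and Top2a, the topoisomerase that untangles sister chromosomes, by 1.22.

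All 6 kinetochore and checkpoint genes were higher in FlipFlop CD8 than in B6 CD4 and in FlipFlop CD4, and 1 of them, Cenpa, the histone of centromeres, was called between B6 CD4 and B6 CD8 (0.58 ± 0.11). The call of Cenpa between FlipFlop CD8 and B6 CD4 was lost with only those groups fitted, without any 1 of the B6 CD4 replicates and without FlipFlop CD8 replicate 1 or 2. Cdc20, the activator of the anaphase-promoting complex and the member of this group with the highest level per length (4.31 CPM per kb), was at 6.39, 8.13 and 5.67 CPM in the B6 CD4 libraries, 7.08, 6.28 and 6.86 CPM in those of B6 CD8, 6.96, 7.32 and 6.58 CPM in those of FlipFlop CD4 and 11.9, 13.7 and 9.69 CPM in those of FlipFlop CD8. Cenpf, a kinetochore protein of G2 and M phase, was at 0.601, 2.45 and 1.53 CPM in the B6 CD4 libraries, 1.09, 1 and 0.861 CPM in those of B6 CD8, 1.81, 1.27 and 1.75 CPM in those of FlipFlop CD4 and 4.31, 8.2 and 5.8 CPM in those of FlipFlop CD8. The Cenpf values of B6 CD4 spread widely, and the log2 difference of FlipFlop CD8 from B6 CD4 was 1.77 ± 0.31 (adjusted p = 0.0019 by limma). Cenpe, a kinetochore motor, and Bub1 and Bub1b, kinases of the spindle checkpoint, rose in the same comparison by 1.43, 1.27 and 1.37.

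The 5 mitotic kinases and partners were likewise all higher in FlipFlop CD8 than in B6 CD4 and in FlipFlop CD4. Plk1, polo-like kinase 1, was at 3.38, 4.75 and 4.75 CPM in the B6 CD4 libraries, 1.72, 1.64 and 2.22 CPM in those of B6 CD8, 3.22, 3.15 and 1.86 CPM in those of FlipFlop CD4 and 9.64, 12.8 and 7.26 CPM in those of FlipFlop CD8. The B6 CD4 libraries also lay above the B6 CD8 libraries, with a log2 difference of 1.02 ± 0.22 (adjusted p = 0.005 by limma). Aurkb, aurora kinase B of the chromosomal passenger complex, was at 1.47, 3.03 and 2.94 CPM in the B6 CD4 libraries, 1.54, 1.36 and 1.69 CPM in those of B6 CD8, 2.17, 1.78 and 2.01 CPM in those of FlipFlop CD4 and 8.16, 9.36 and 6.6 CPM in those of FlipFlop CD8. Birc5, which encodes survivin of the same complex, was at 4.7, 4.87 and 4.01 CPM in the B6 CD4 libraries, 2.58, 2.4 and 3.58 CPM in those of B6 CD8, 2.99, 2.07 and 2.42 CPM in those of FlipFlop CD4 and 12.5, 15.2 and 7.26 CPM in those of FlipFlop CD8. FlipFlop CD8 values of both genes exceeded all others, by log2 differences from B6 CD4 of 1.56 ± 0.21 and 1.22 ± 0.23. Tpx2, the activator of aurora kinase A, was at 4.7, 5.75 and 4.29 CPM in the B6 CD4 libraries, 2.92, 3.2 and 2.95 CPM in those of B6 CD8, 4.27, 3.37 and 2.86 CPM in those of FlipFlop CD4 and 14.7, 18.7 and 11.7 CPM in those of FlipFlop CD8, and Aurka itself rose less, by 0.75 ± 0.18.

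Of the kinesins and microtubule proteins, Kif11, Kif15, Kif20a and Nusap1, which build and order the spindle, rose in FlipFlop CD8 over B6 CD4 by 1.15 to 1.54 on the log2 scale. Stmn1, stathmin, which destabilises microtubules, differed from them, at 70.9, 52 and 46 CPM in the B6 CD4 libraries, 18.9, 17.9 and 19.1 CPM in those of B6 CD8, 25.4, 23.1 and 20.1 CPM in those of FlipFlop CD4 and 70.7, 68.6 and 56.3 CPM in those of FlipFlop CD8. The helper groups overlapped each other and lay above both cytotoxic groups, so the lineage effect of Stmn1 was 1.52 ± 0.10 (adjusted p = 1.6e-07 by limma), and its difference between FlipFlop CD8 and B6 CD4 was 0.23 ± 0.14 (adjusted p = 0.25). Stmn1 and E2f2 had the largest differences between B6 CD4 and B6 CD8 of all members.

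Kif23 was the exception among the G2/M genes. It encodes the kinesin subunit of centralspindlin, the complex that bundles microtubules for cytokinesis, and lies on chromosome 9, 61915905 to 61946774 (GRCm38). It was at 6.8, 6.71 and 6.25 CPM in the B6 CD4 libraries, 14.5, 16.1 and 15.9 CPM in those of B6 CD8, 16.6, 16 and 20.0 CPM in those of FlipFlop CD4 and 10.7, 11.2 and 9.95 CPM in those of FlipFlop CD8. All cytotoxic libraries exceeded all helper libraries, with a lineage effect of -0.93 ± 0.07 (adjusted p = 3.7e-07 by limma). Within the helper lineage Kif23 was still higher in FlipFlop CD8 than in B6 CD4, by 0.65 ± 0.10. Racgap1, which is no member but encodes the other subunit of centralspindlin and was among the listed mitosis genes, was at 12.7, 16.6 and 16.3 CPM in the B6 CD4 libraries, 93.7, 104 and 103 CPM in those of B6 CD8, 94.6, 90.4 and 61.4 CPM in those of FlipFlop CD4 and 31.3, 31.1 and 19.9 CPM in those of FlipFlop CD8. It showed the same order of lineages, with a lineage effect of -2.13 ± 0.13 (adjusted p = 8.4e-08 by limma).

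**Figure D5:**
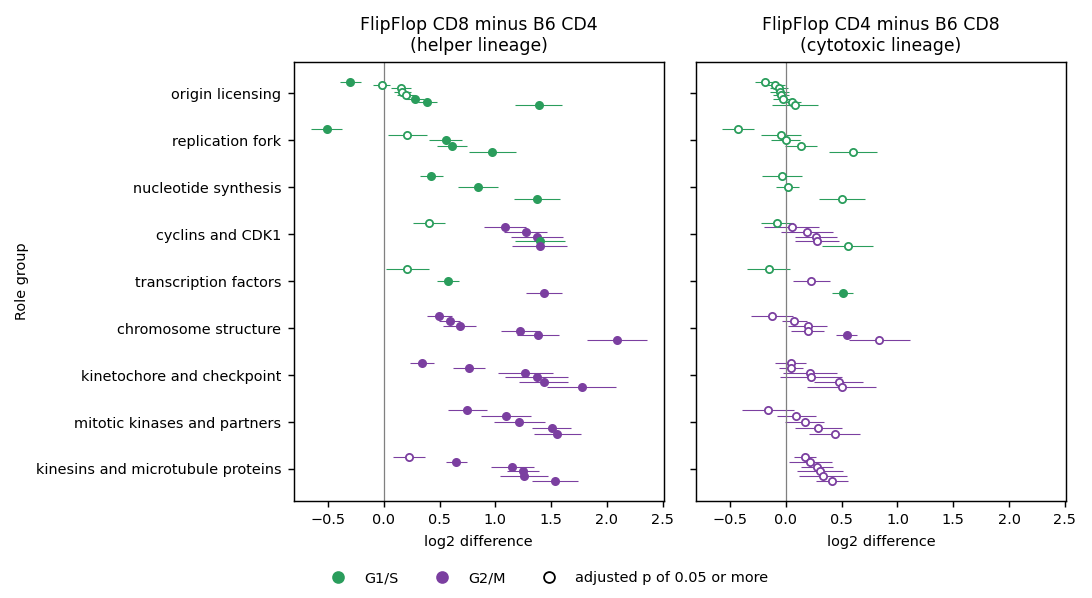
Log2 difference of each member (points, with the standard error from limma) by role group between FlipFlop CD8 and B6 CD4 (left) and between FlipFlop CD4 and B6 CD8 (right), filled where the adjusted p was under 0.05. On the left 38 members are filled to the right of 0 and 2 to the left, and on the right 2 members are filled.

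Within FlipFlop CD8, replicate 2 was above its group mean for all 28 G2/M members, with a median deviation of 0.33 on the log2 scale, and replicate 3 was above it for 1 of 28, with -0.25. In B6 CD4, replicate 1 was above its mean for 5 of 28 members, with a median of -0.30. The members thus moved together between libraries of 1 group. Without FlipFlop CD8 replicate 2, the most extreme library, 34 members were still called higher in FlipFlop CD8 than in B6 CD4, and leaving out any 1 of the 12 libraries gave 37 to 40 calls for the lineage effect.

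Other genes of the same processes came from lists outside the 48. Of 62 tested mitosis genes, 50 were higher and 2 lower in FlipFlop CD8 than in B6 CD4, 49 lower and 1 higher in FlipFlop CD4 than in FlipFlop CD8, and 12 higher and 3 lower in B6 CD4 than in B6 CD8. By the lineage effect 47 were higher and 3 lower. The shares of all genes higher and lower were 13.2% and 14.4% in the first of these, 15.3% and 16.0% in the second, 14.6% and 10.8% in the third and 19.9% and 19.4% for the lineage effect, so the count of higher genes between the B6 groups was not far above its background. Melk, a kinase of dividing cells, was at 2.07, 2.58 and 2.17 CPM in the B6 CD4 libraries, 0.824, 0.84 and 1.29 CPM in those of B6 CD8, 0.886, 1.01 and 1.08 CPM in those of FlipFlop CD4 and 5.95, 6.81 and 5.03 CPM in those of FlipFlop CD8. Kifc1, a kinesin that focuses spindle poles, had a lineage effect of 1.502 ± 0.08 (adjusted p = 3.1e-08 by limma), but unlike most mitotic members it was not called between FlipFlop CD8 and B6 CD4 (-0.23 ± 0.12).

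Of 42 tested replication genes, 14 were higher and 2 lower in FlipFlop CD8 than in B6 CD4, against 13.2% and 14.4% of all genes, and 7 were higher and 9 lower by the lineage effect, near the 19.9% and 19.4% of all genes in each direction. Tk1, thymidine kinase of S phase, and Chaf1a, of the histone chaperone CAF-1, had lineage effects of 1.28 and 0.79, and Pola2, of the primase complex, had -0.42. Of 22 cyclin D, Rb and E2F genes, 7 were higher and 5 lower by lineage, against the same 19.9% and 19.4%. Among them were Cdk2 (0.68), Rb1 (0.90) and Myc (-0.49). Of 6 tested inhibitors of cyclin-dependent kinases, 4 were higher and 1 lower by lineage, including Cdkn1c at 0.998 ± 0.13 and Cdkn2c at 0.81 ± 0.10, and of 11 quiescence genes 3 were higher and 1 lower. The shares of all genes are the same for these lists. The counts of quiescence genes and of lower cyclin D, Rb and E2F genes were not far from those shares.

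Markers of T cell subsets moved with the groups. The 10 regulatory T cell genes summed to 1287 to 1439 CPM per library in FlipFlop CD8 and 561 to 672 CPM per library in B6 CD4, against 96.2 to 106 CPM for FlipFlop CD4 and 87.4 to 94.1 CPM for B6 CD8, and 9 of 10 were higher in FlipFlop CD8 than in B6 CD4, against 13.2% of all genes. Foxp3, the defining factor of these cells, was at 93.1, 128 and 103 CPM in the B6 CD4 libraries, 0.974, 1.4 and 0.53 CPM in those of B6 CD8, 2.3, 2.07 and 1.6 CPM in those of FlipFlop CD4 and 305, 362 and 312 CPM in those of FlipFlop CD8. The 12 memory or effector genes summed to 969 to 1446 CPM in FlipFlop CD8 libraries, 1023 to 1104 CPM for B6 CD8, 463 to 590.1 CPM for B6 CD4 and 529 to 613 CPM for FlipFlop CD4. These genes did not move together, so the sum does not rank the groups for each of them. By limma Cd44, S100a4, S100a6 and Klrg1 were called higher in B6 CD4 than in B6 CD8. Cxcr3, Ccl5, Il2rb, Itgae and Tbx21 were called lower there, and Ifng, Gzmb and Gzmk were not called. The 8 naive T cell genes summed to 4582 to 4827 CPM in FlipFlop CD8 and to 5458 to 6265 CPM in the other groups. The part of these cells in the differences of the 48 members was not tested.

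Markers of some other cells also moved with the groups. The 6 plasma cell genes, which include genes of activated T cells such as Irf4, summed to 82.5 to 89.0 CPM for FlipFlop CD8 and 46.8 to 65.3 CPM for B6 CD4, against 24.9 to 33.5 CPM for FlipFlop CD4 and 17.2 to 24.6 CPM for B6 CD8, the order of the G2/M medians. Not all 6 followed this order. Prdm1, Irf4, Sdc1 and Derl3 were called higher by lineage (1.97, 1.57, 1.16 and 0.92), but Jchain (-0.04) and Mzb1 (0.35) were not called. Mzb1 was lower in FlipFlop CD8 than in B6 CD4, at -0.64 (adjusted p = 0.044 by limma). The 10 B cell genes found summed to 540.4 to 681 CPM over all libraries, mostly Ighm, and of the 9 tested 4 were lower and 0 higher in FlipFlop CD8 than in B6 CD4 by limma, against 14.4% and 13.2% of all genes. The 3 germinal center B cell genes found in the table summed to 15.7 to 24.6 CPM for FlipFlop CD8 and 15.1 to 17.7 CPM for B6 CD4, against 9.37 to 10.6 CPM for FlipFlop CD4 and 7.95 to 10.2 CPM for B6 CD8. The only one tested, S1pr2, had a lineage effect of 0.84 ± 0.10 (adjusted p = 3.8e-05 by limma). The 8 myeloid genes found summed to 89.0 to 103 CPM for B6 CD4, 73.6 to 91.2 CPM for FlipFlop CD8, 79.6 to 87.8 CPM for B6 CD8 and 55.6 to 71.8 CPM for FlipFlop CD4. By limma 5 of them were higher and 0 lower by lineage, against 19.9% and 19.4% of all genes. The 4 red blood cell genes summed to 22.1 to 28.8 CPM for B6 CD4, 15.9 to 25.2 CPM for B6 CD8, 6.67 to 14.2 CPM for FlipFlop CD4 and 9.62 to 14.2 CPM for FlipFlop CD8, and all 4 were lower by the strain effect, against 15.4% of all genes. The 2 thymocyte genes found, Dntt and Cd1d1, summed to 43.0 to 60.8 CPM for B6 CD4, 36.9 to 42.3 CPM for B6 CD8, 30.7 to 33.9 CPM for FlipFlop CD4 and 37.9 to 41.1 CPM for FlipFlop CD8. Both were lower by the strain effect, and Dntt had a lineage effect of 0.52 ± 0.12 (adjusted p = 0.0047 by limma). The NK cell genes summed to 479 to 518 CPM for B6 CD8, 298 to 302 CPM for FlipFlop CD4, 27.6 to 87.7 CPM for FlipFlop CD8 and 14.5 to 28.7 CPM for B6 CD4. Of these, only Nkg7 was called lower by lineage, at -4.61 (adjusted p = 1.3e-06 by limma). Klrb1c was called higher, at 1.45 (adjusted p = 5e-06 by limma). Klrk1, Tyrobp, Fcer1g and Gzma had no lineage call, and Ncr1 and Klra8 were not among the listed genes. The part of these other cells in the differences of the members was not tested either.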

How the data were processed

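The samples were sorted LN T cells of 2 strains and 2 coreceptors, in 4 groups of 3 libraries. The authors made libraries with the SMARTer Universal Low Input RNA kit, sequenced them as paired ends and, per the methods, aligned reads to mm10 with STAR, while the submitters' processing notes name Trimmomatic and TopHat. The counting program, the annotation and the filter of the table are not given in the sources used here, nor is whether reads shared with near-identical copies were counted. The authors deposited 1 table of expression signal, CPM scaled by TMM, with 12809 genes.

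Whole reads made up 84.8% to 86.4% of values under 100 CPM (within 0.005 of a whole number), too few to recover counts, so no count test was run. None of the 66 pairs of libraries was identical. The floor of 3 reads covers counting error only. Values were transformed to log2(CPM + 0.5), 11595 genes that reached 1 CPM in 3 or more libraries were kept, and all 12 libraries were fitted with 1 mean per group (8 residual degrees of freedom) with limma 3.58.1 (lmFit and eBayes with trend) in R 4.3.3. Adjusted p-values are Benjamini-Hochberg over all genes tested. Errors are SE of the fit or SD over 3 replicates, as given. The script was tested on simulated data. Gene positions and exon lengths came from GENCODE M21 (GRCm38), promoters from RefSeq.

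The members and lists were chosen with earlier results of these data known. Values per library are given for the member with the highest CPM per kb of exon in each role group, the 3 called members with the largest differences in each direction of each comparison, and Mki67. Of the lists of other cell cycle genes at most 3 genes are named, by the lowest adjusted p of the lineage effect. Genes of the marker lists are also named where the members of a list moved apart. Alternatives were the pseudocounts 0.1 and 1, the filter, rescaling, no TMM factor, only the groups compared, no trend, the study's limits, a stricter threshold, replicate blocks and leaving out each library. Figures used matplotlib 3.10.9 (python 3.11.15).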

Additional observations from a re-analysis of the deposited data

Results flagged for a closer look

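The CD4 minus CD8 difference of 37 of the 48 members was not the same in B6 and FlipFlop T cells, by the limma test of the interaction (adjusted p under 0.05 over all genes), which is the test of the lineage effect. The interaction was higher for the helper lineage in 34 of them, of which 32 had a positive difference in B6 and a negative one in FlipFlop mice. On the log2 scale the lineage effects of genes of replication and nucleotide synthesis were 0.95 for Cdc6, 0.86 for Mcm10, 0.58 for Cdc45, 0.46 for Gins1, 0.32 for Gins2, 1.29 for Rrm2 and 0.86 for Tyms. Those of cyclins, their kinase and transcription factors were 0.995 for Ccne2, 1.34 for Ccna2, 1.09 for Ccnb1, 1.34 for Ccnb2, 1.22 for Cdk1, 1.27 for E2f2 and 0.39 for Foxm1. Those of chromosome structure were 1.59 for Mki67, 0.93 for Top2a, 0.22 for Smc4 and 1.03 for Ncapg, and those of the kinetochore and checkpoint were 0.72 for Cenpa, 0.99 for Cenpe, 0.98 for Cenpf, 0.83 for Bub1, 1.17 for Bub1b and 0.35 for Cdc20. Those of mitotic kinases and partners were 0.67 for Aurka, 1.14 for Aurkb, 1.35 for Plk1, 1.28 for Birc5 and 1.28 for Tpx2, and those of kinesins and microtubule proteins were 1.16 for Kif11, 1.13 for Kif15, 1.06 for Kif20a, 1.14 for Nusap1 and 1.52 for Stmn1. The effect was the other way for 3 members, at -0.53 for Cdt1, -0.64 for Ccne1 and -0.93 for Kif23.

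The difference between FlipFlop and B6 T cells was also not the same for both lineages in 10 members, by the same model, where this interaction is the coreceptor effect. As a mean over both strains all 10 were lower in CD4 than in CD8 T cells, although the difference was positive in B6 mice for 9 of them (all but Foxm1), with effects of -0.65 for Cdc6, -0.67 for Ccnb1, -0.60 for Foxm1, -0.52 for Top2a, -0.75 for Ncapg, -0.63 for Aurkb, -0.69 for Birc5, -0.67 for Tpx2, -0.62 for Kif11 and -0.42 for Kif20a.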

How the results depend on the processing

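The counts of called members were recomputed under each alternative. With only the 30 members averaging at least 5 CPM, fewer genes could be called, 20 between the FlipFlop groups, 20 for the lineage effect, 4 for the coreceptor effect, 21 for the strain effect and 24 between FlipFlop CD8 and B6 CD4. Under the limits of the study's heat map (p under 0.0001 and more than 5-fold) 0 members were called in each of the 7 comparisons, since no member reached that fold. At an adjusted p under 0.01 there were 11 calls between B6 CD4 and B6 CD8 and 2 for the coreceptor effect. Without the TMM factor, which moved the median of all genes between the FlipFlop groups from 0.04 to -0.14, the coreceptor effect had 20 calls. Fitting only the groups compared gave 4 calls between FlipFlop CD4 and B6 CD8.

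CD4 and CD8 samples with the same number deviated together in FlipFlop mice, with correlations of 0.44, 0.27 and 0.51, and less so in B6 mice, with 0.18, 0.09 and 0.35. A replicate block within strain gave 20 calls for the coreceptor effect, and a replicate block across all groups gave 4 between FlipFlop CD4 and B6 CD8. No other count moved by over 1.5 times under either block.

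Leaving out each library in turn gave 12 to 25 calls between B6 CD4 and B6 CD8 (12 without B6 CD8 replicate 2), 35 to 39 between the FlipFlop groups, 37 to 40 for the lineage effect, 3 to 18 for the coreceptor effect, 31 to 39 for the strain effect, 34 to 41 between FlipFlop CD8 and B6 CD4 and 2 to 3 between FlipFlop CD4 and B6 CD8. Of 796 refits of single gene results, 728 kept the direction and the call, 68 lost the call and 0 reversed. The cause of these changes was not tested. The lowest value of any member, 0.374 CPM for Ccne2, was above the level of 3 reads, and the effect of depth on the calls was not tested.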

Other observations

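Histone genes, picked only by a Hist symbol and after their values were seen, had their highest sums in another group than the members. Many genes of this family are made in S phase, but which of those listed depend on replication was not checked. The 20 listed genes with a Hist symbol summed to 94.7, 78.0 and 74.2 CPM in the B6 CD4 libraries, 52.6, 55.4 and 47.9 CPM in the B6 CD8 libraries, 60.5, 55.7 and 50.8 CPM in those of FlipFlop CD4 and 68.8, 58.7 and 57.7 CPM in FlipFlop CD8. The B6 CD4 libraries were the highest, above all FlipFlop CD8 libraries. The B6 CD4 libraries lay above those of B6 CD8, while FlipFlop CD8 and FlipFlop CD4 overlapped. The largest parts of the B6 CD4 sums were Hist3h2a and Hist2h2be, at means of 20.01 and 15.55 CPM, while others such as Hist1h2ai (0.249 CPM) were very low. No test of these sums was made, and they are not a measure of cells in S phase.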
